A study of Mus musculus with 12 samples.

Results

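The homeobox genes of the Hoxa, Hoxb, Hoxc and Hoxd clusters were examined in prostate labelled Med1 knock out and in wild-type prostate. The members were every gene whose platform symbol is Hox, a cluster letter and a paralog number, each read through its brightest probe set over the 12 arrays. There were 33 such genes among 18194 genes on the arrays. RefSeq lists 39 genes in these clusters, and the members were 9 of 11 in Hoxa (chromosome 6), 9 of 10 in Hoxb (chromosome 11), 7 of 9 in Hoxc (chromosome 15) and 8 of 9 in Hoxd (chromosome 2). The other genes of these clusters were not analysed here. The 4 groups were lateral prostate labelled Med1 knock out (KO lateral), lateral prostate of wild type (WT lateral), ventral prostate labelled Med1 knock out (KO ventral) and ventral prostate of wild type (WT ventral), with 3 arrays each, all from mice of 16 weeks. Total RNA was read on Affymetrix arrays, and values are RMA log2 signals. The part of Med1 that was deleted, the cells that lost it and the strain are not given here. No label ties an array to its own animal, so the p-values reflect the spread of these arrays only, and that spread can be technical.

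Hox genes encode transcription factors that give cells a position along the body axis. Within a cluster, genes with low paralog numbers are active early and toward the head, and those with high numbers are active late and toward the tail, and each factor binds DNA together with cofactors of the Pbx and Meis families. The prostate buds from the urogenital sinus, near the tail end of the axis, where genes of the highest paralog numbers shape the accessory sex glands, and adult lobes retain Hox expression in epithelium and stroma. Med1 belongs to Mediator, the complex that links DNA-bound factors, among them the androgen receptor, to RNA polymerase.

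Med1 itself had 8.40, 8.34 and 8.44 log2 units on the KO lateral arrays, against 8.58, 8.75 and 8.23 on the WT lateral arrays, which overlap. That lateral difference was -0.13 ± 0.12 (SE; limma adjusted p = 0.622), so the label of the KO lateral arrays is not borne out by this probe set and is used as a label only. In the ventral lobe Med1 had 8.90, 8.99 and 8.68 log2 units on the KO arrays, against 9.48, 9.52 and 9.29 on the WT arrays, and fell by 0.57 on the log2 scale (adjusted p = 0.0119). Krt8, Krt18 and Pbsn, markers of prostate epithelium, averaged 11.67 log2 units or more in all 4 groups. For genes of the seminal vesicle, a gland that borders the prostate, KO lateral array 3 and WT ventral array 3 stood apart from their groups (Svs5 at 9.06 log2 units on KO lateral array 3, against 11.02 and 11.03 on the other KO lateral arrays), so counts are also given without both. The sorted values of the lobes differ as if each lobe had been normalized in its own run, so the lobes are compared after quantile normalization over 12 arrays.

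In the lateral lobe 9 Hox genes, all of clusters b and d, were lower in the KO arrays. Of the 33 members, 1 was higher and 9 were lower in KO lateral prostate (limma, Benjamini-Hochberg adjusted p under 0.05 over all genes). Over all 18194 genes 5.03% passed in this comparison, 1.62% higher and 3.42% lower, beside 30.3% of the Hox genes. By cluster, 5 of 9 Hoxb genes and 4 of 8 Hoxd genes fell, 1 of 9 Hoxa genes rose, and 0 of 7 Hoxc genes passed by limma. The median difference was -0.49 log2 units in Hoxb and -0.49 in Hoxd, against 0.17 in Hoxa, -0.014 in Hoxc and -0.0025 over all genes. At an unadjusted p under 0.05 there were 18 members, of which 1 lay in Hoxc. Without KO lateral array 3 and WT ventral array 3 the count was 9, with 1 higher and 8 lower. The count was also lowered by leaving out WT lateral array 3, to 6 members, all of them lower.

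Hoxd9 and Hoxd8, neighbours in the middle of the Hoxd cluster, differed most between KO and WT lateral prostate among the members. Hoxd9, which in mice takes part in patterning the lower spine and hindlimb, had 7.01, 6.92 and 6.58 log2 units on the KO lateral arrays, against 8.79, 8.77 and 8.93 on the WT lateral arrays. All KO lateral arrays lay below all WT lateral arrays by more than 1 log2 unit. The difference was -1.99 ± 0.13 (SE), 3.98-fold lower (adjusted p = 6.97e-07). Hoxd8 had 7.20, 6.80 and 7.17 log2 units on the KO lateral arrays, against 8.73, 8.65 and 8.88 on the WT lateral arrays, with the groups again apart. Hoxd8 fell by 1.70 ± 0.16 on the log2 scale, 3.25-fold (adjusted p = 2.61e-05). A second Hoxd8 probe set gave -1.96 ± 0.12 (adjusted p = 7.64e-07 in a fit over all probe sets). Without KO lateral array 3 and WT ventral array 3, the difference was -1.87 for Hoxd9 and -1.76 for Hoxd8.

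The sequences before the transcription starts of these genes are shown beside that of Hoxd12, a member of the same cluster that did not pass in the lateral lobe. They are the 250 bases upstream of the start, from RefSeq on build GRCm38.p6, plus strand, at chr2:74697513-74697762 for Hoxd9, chr2:74704365-74704614 for Hoxd8 and chr2:74674763-74675012 for Hoxd12. Capitals mark a GC box, GGGCGG on either strand, the site read by factors of the Sp1 family.
Hoxd9: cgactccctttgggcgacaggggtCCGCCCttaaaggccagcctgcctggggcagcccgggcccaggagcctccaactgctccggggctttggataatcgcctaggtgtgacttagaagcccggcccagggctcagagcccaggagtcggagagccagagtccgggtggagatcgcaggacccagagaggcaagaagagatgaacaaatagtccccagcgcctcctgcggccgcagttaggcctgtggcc
Hoxd8: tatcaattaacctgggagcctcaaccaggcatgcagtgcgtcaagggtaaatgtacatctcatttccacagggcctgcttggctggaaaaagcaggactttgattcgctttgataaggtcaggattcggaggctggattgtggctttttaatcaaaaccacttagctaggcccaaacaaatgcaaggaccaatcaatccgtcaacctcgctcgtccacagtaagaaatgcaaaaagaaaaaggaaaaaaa
Hoxd12: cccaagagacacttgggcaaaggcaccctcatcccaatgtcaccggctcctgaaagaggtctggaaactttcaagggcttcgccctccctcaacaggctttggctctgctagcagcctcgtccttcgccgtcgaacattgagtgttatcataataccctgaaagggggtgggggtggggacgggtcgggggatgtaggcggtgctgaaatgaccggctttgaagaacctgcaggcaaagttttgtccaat
Hoxd9 held 1 GC box, on the minus strand, and the letters were not found in the Hoxd8 and Hoxd12 windows. The promoter table held 24 windows of 22 Hox genes, of which 19 were members. GGGCGG stood in 10 of the 24 windows, against 32.7% of 32851 promoter windows of that length. TATAAA stood in 4 of 24 (12.4% of all windows), AGAACA, a half-site of steroid receptors, in 2 (16.1%), TGACAG, the Meis motif, in 2 (15.9%) and TGATTNAT, the joint motif of Hox and Pbx factors, in 2 (2.82%). Both strands were searched, each motif was counted on its own, and matches are descriptions of the letters and not of binding.

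The other Hoxd genes were lower or close to WT in KO lateral prostate, and all 8 members of the cluster had a negative difference. Hoxd13, which in mice shapes the digits and the accessory sex glands, had 7.47, 7.51 and 7.46 log2 units on the KO lateral arrays, against 7.89, 7.82 and 8.02 on the WT lateral arrays. The groups did not overlap, and the difference was -0.43 ± 0.091 (adjusted p = 0.0146). Hoxd13 no longer passed without WT lateral array 3 (-0.37, adjusted p = 0.0801) or KO lateral array 3 (-0.42, adjusted p = 0.0527), while its second probe set gave -0.70 ± 0.12 (adjusted p = 0.00628). Hoxd3, a gene of the upper neck in mouse embryos, had 3.04, 3.52 and 3.78 log2 units on the KO lateral arrays, against 3.94, 4.26 and 4.54 on the WT lateral arrays. Its mean lay below the lower quartile of all probe sets in every group, called low signal here. It fell by 0.80 ± 0.21 (adjusted p = 0.0428), and no longer passed when WT lateral array 2 or 3, KO lateral array 1 or 2, WT ventral array 2 or 3 or KO ventral array 2 was left out, with differences of -0.84 to -0.60 and adjusted p up to 0.178. Hoxd10 and Hoxd11, active in limbs and lower trunk, did not pass, at -0.45 ± 0.14 (adjusted p = 0.0925) and -0.53 ± 0.16 (adjusted p = 0.0724). Hoxd12 had 5.63, 5.64 and 5.92 log2 units on the KO lateral arrays, against 5.79, 5.88 and 5.75 on the WT lateral arrays, which overlap, and Hoxd1 was low in every group.

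Among Hoxb genes, the run of paralogs 2 to 6 was lower in KO lateral prostate. Hoxb3, which helps pattern the hindbrain, had 6.38, 6.07 and 6.40 log2 units on the KO lateral arrays, against 7.08, 7.17 and 7.02 on the WT lateral arrays. It fell by 0.80 ± 0.098 (adjusted p = 0.000194), and its second probe set by 0.59 ± 0.11 (adjusted p = 0.00903). Hoxb4, also known as a regulator of blood stem cells, had 6.22, 6.01 and 6.37 log2 units on the KO lateral arrays, against 7.0, 7.25 and 7.15 on the WT lateral arrays. All KO lateral arrays were below all WT lateral arrays, with a difference of -0.93 ± 0.15 (adjusted p = 0.00162), whereas a dimmer second probe set gave -0.23 ± 0.14 and did not pass (adjusted p = 0.421). Hoxb6, a gene of the trunk, had 7.07, 7.44 and 6.84 log2 units on the KO lateral arrays, against 8.01, 7.95 and 7.95 on the WT lateral arrays. It fell by 0.85 ± 0.13 (adjusted p = 0.00139). Hoxb2, which acts in the hindbrain, had 4.74, 4.50 and 4.33 log2 units on the KO lateral arrays, against 5.21, 5.12 and 5.49 on the WT lateral arrays. The arrays of the groups were apart, at -0.75 ± 0.12 (adjusted p = 0.00153), with the KO lateral mean just above the low mark of 4.52 log2 units.

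Hoxb5, known in mice for its part in gut neurons and shoulder position, had 6.04, 6.12 and 6.27 log2 units on the KO lateral arrays, against 6.61, 6.46 and 6.84 on the WT lateral arrays, a difference of -0.49 ± 0.10 (adjusted p = 0.0127). It did not pass without WT lateral array 3 (-0.39, adjusted p = 0.0666) or KO lateral array 2 (-0.48, adjusted p = 0.0521). The Hoxb genes outside this run did not pass. Hoxb9 stood at -0.30 ± 0.087 (adjusted p = 0.0679), Hoxb7 at 0.35 ± 0.11 (adjusted p = 0.082) and Hoxb13 at -0.068 ± 0.082 (adjusted p = 0.697). Hoxb13, a factor of luminal prostate cells that works with the androgen receptor, had 11.06, 10.94 and 11.09 log2 units on the KO lateral arrays, against 11.01, 11.21 and 11.08 on the WT lateral arrays, and the groups overlap. Hoxb1 was low in every group.

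**Figure D1:**
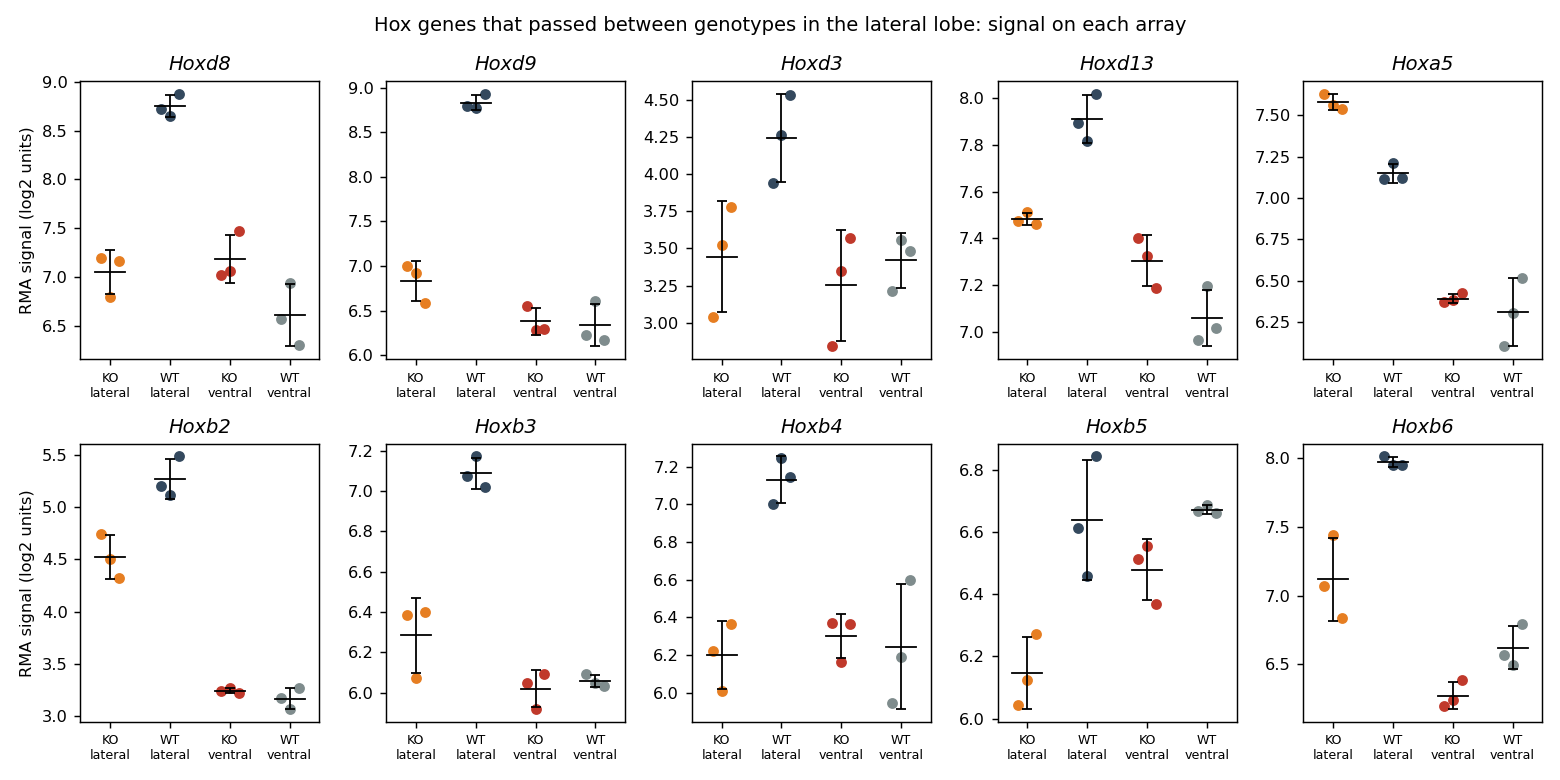
Signal of the 10 Hox genes that passed between genotypes in the lateral lobe, as RMA log2 units on the y axis (each panel has its own range), for KO lateral, WT lateral, KO ventral and WT ventral arrays. Points are arrays, horizontal bars group means and error bars SD (n = 3). For 9 of the 10 genes the KO lateral points lie below the WT lateral points, and Hoxa5 is the exception.

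Hoxa genes gave the only rise. Hoxa5, a gene needed for lung development in mice, had 7.63, 7.56 and 7.54 log2 units on the KO lateral arrays, against 7.11, 7.21 and 7.12 on the WT lateral arrays, and was higher by 0.43 ± 0.097 (adjusted p = 0.0204). It no longer passed when 1 of 4 lateral arrays was left out, with 0.41, adjusted p = 0.07 without WT array 1, 0.42, adjusted p = 0.0805 without WT array 3, 0.40, adjusted p = 0.0567 without KO array 1 and 0.44, adjusted p = 0.0615 without KO array 2. Its second probe set gave 0.23 ± 0.15 (adjusted p = 0.491). Hoxa4, low in every group, stood at 0.46 ± 0.13 (adjusted p = 0.0659) and Hoxa11, active in limb and reproductive tract, at -0.38 ± 0.11 (adjusted p = 0.0549). Hoxa9 and Hoxa10, regulators of blood precursors and of the reproductive tract, stood at 0.14 ± 0.15 and -0.066 ± 0.093. Hoxa13, which shapes digits and the urogenital tract, stood at -0.13 ± 0.14, and none of these 3 passed (adjusted p = 0.662, 0.753 and 0.663). In Hoxc the differences ran between -0.29 and 0.19 with a smallest adjusted p of 0.25, and 4 of its 7 genes, Hoxc4, Hoxc8, Hoxc10 and Hoxc13, were low in every group.

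Genes with the same paralog number had unlike differences in the lateral lobe. Of the paralogs numbered 9, Hoxd9 was at -1.99, against -0.30 for Hoxb9, 0.079 for Hoxc9 and 0.14 for Hoxa9. Of those numbered 13, Hoxd13 was at -0.43, with -0.068 for Hoxb13, -0.13 for Hoxa13 and 0.19 for Hoxc13. Among paralogs 1 to 4, 4 of 10 members passed, all lower. Among paralogs 5 to 8, 1 of 9 was higher and 3 were lower, and among paralogs 9 to 13, 2 of 14 were lower. Of the 33 members, 22 were above the low mark in all 4 groups and 9 (Hoxa2, Hoxa4, Hoxb1, Hoxc4, Hoxc8, Hoxc10, Hoxc13, Hoxd1 and Hoxd3) were below it in all 4, while Hoxb2 was below it in both ventral groups and Hoxb7 in all but KO lateral.

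**Figure D2:**
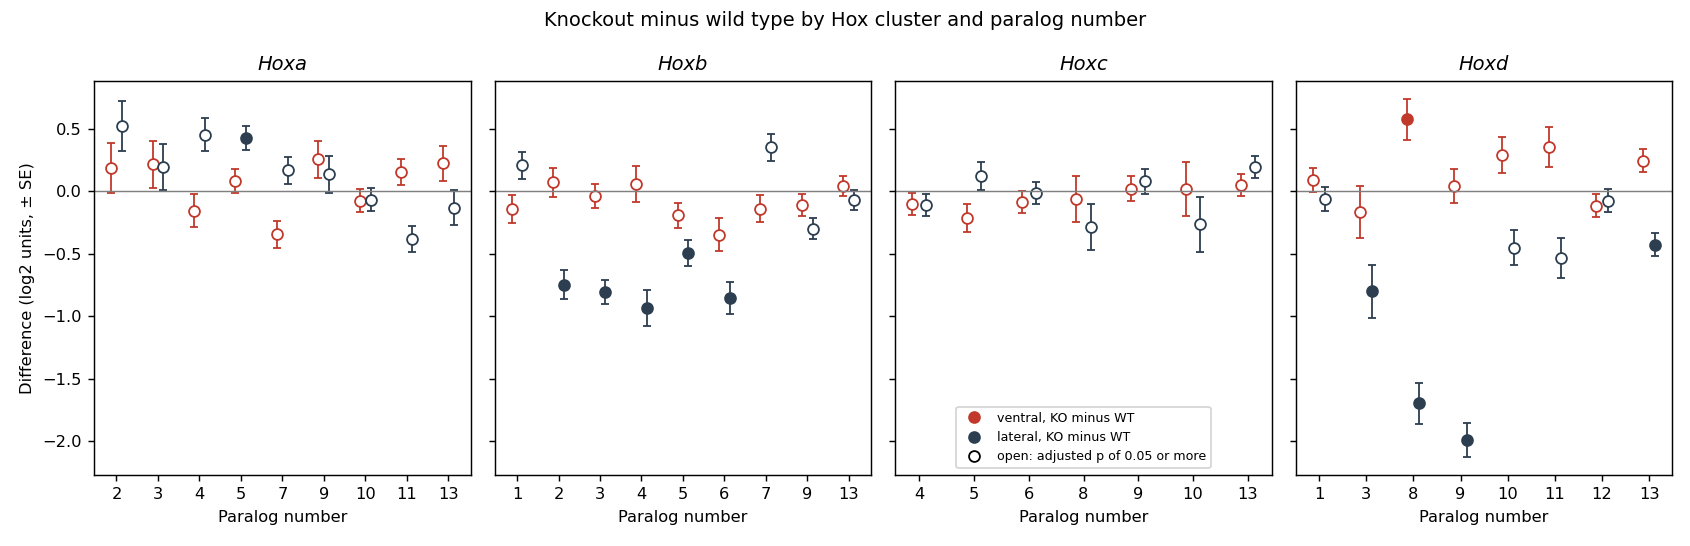
Difference between KO and WT in log2 units (y axis, with moderated SE) for each member by paralog number (x axis, evenly spaced), 1 panel per cluster, for the ventral and the lateral lobe. Filled points passed at an adjusted p under 0.05. Lateral differences of Hoxb2 to Hoxb6 and of Hoxd3, Hoxd8, Hoxd9 and Hoxd13 are filled and below 0, Hoxa5 is filled and above 0, and the only filled ventral point is Hoxd8.

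Markers of stroma and of the seminal vesicle moved in the same lateral comparison. Smooth muscle markers had 4 of 9 lower and 0 higher in KO lateral prostate (median -0.40), and their summed signal, as log2, was 14.51 to 14.75 on KO lateral arrays, against 14.95 to 15.03 on WT lateral arrays. Fibroblast and matrix markers had 6 of 9 lower and 0 higher (median -0.46), with sums of 12.31 to 12.58 on KO lateral arrays, against 12.78 to 12.86 on WT lateral arrays. These 2 lists include Actg2 of smooth muscle, at -0.60 ± 0.12, and Lum of connective tissue, at -1.21 ± 0.17 (adjusted p = 0.0109 and 0.000735). Seminal vesicle markers had 4 of 6 lower (median -2.88), and their sums were 10.73 to 13.17 on KO lateral arrays, against 15.25 to 15.33 on WT lateral arrays. Svs4, a secreted protein of that gland, had 8.77, 8.44 and 8.28 log2 units on KO lateral arrays, against 11.98, 11.91 and 12.06 on WT lateral arrays.

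Of the other marker lists in this comparison, nerve had 2 of 4 lower, basal epithelium 1 of 5 lower, urothelium 2 of 6 higher, and skeletal muscle 2 higher and 1 lower of 7. Adipocyte, endothelium, leukocyte and epididymis markers had 0 passing by limma, with 2 of 3, 0 of 5, 0 of 7 and 1 of 4 at an unadjusted p under 0.05. Of 6 luminal epithelium markers, a list that holds Hoxb13, 0 passed by limma and 2 had an unadjusted p under 0.05, and their sums were 14.53 to 14.57 on KO lateral arrays, against 14.57 to 14.62 on WT lateral arrays. The part that these tissues have in the Hox differences was not tested. In bulk tissue, fewer cells of a type and less RNA per cell cannot be told apart.

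**Figure D3:**
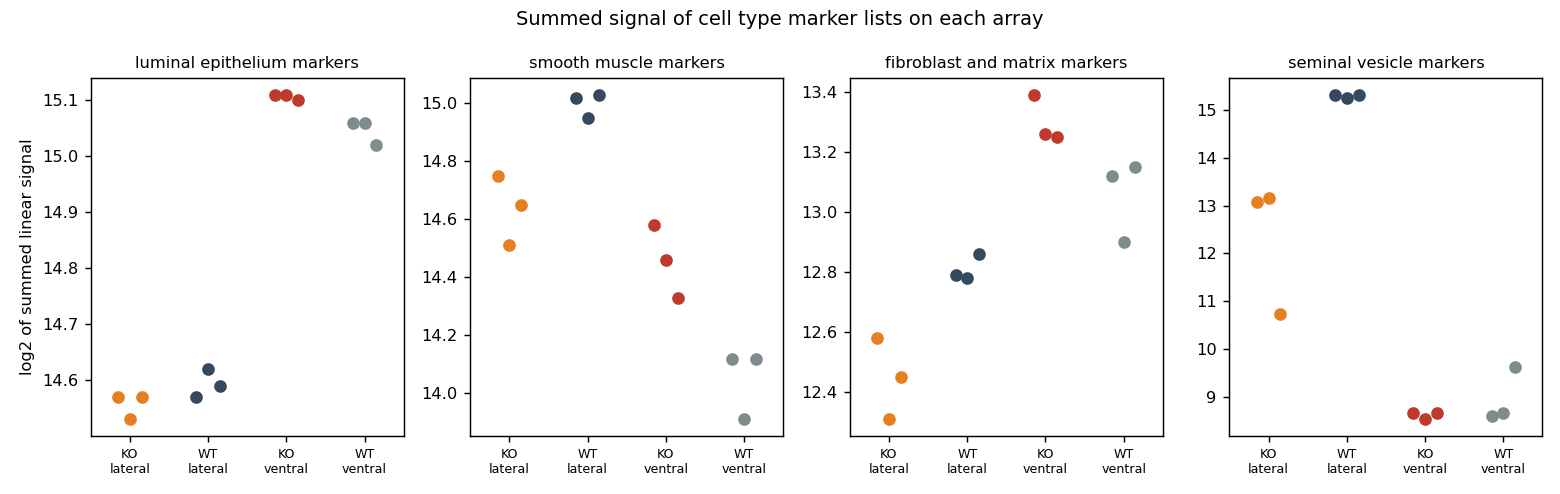
Log2 of the summed linear signal (y axis, each panel with its own range) of luminal epithelium, smooth muscle, fibroblast and matrix, and seminal vesicle markers on each of the KO lateral, WT lateral, KO ventral and WT ventral arrays (1 point per array). Smooth muscle and fibroblast sums are lower in KO than in WT lateral arrays and higher in KO than in WT ventral arrays, and the seminal vesicle sum of KO lateral array 3 is 10.73, below 13.08 and 13.17 on the other KO lateral arrays.

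In the ventral lobe few Hox genes differed between genotypes. Of the 33 members, 1 was higher and 0 were lower in KO ventral prostate by limma, while over all genes 9.08% passed, 5.88% higher and 3.20% lower. At an unadjusted p under 0.05 there were 5 members. Hoxd8 was the gene that passed. It had 7.03, 7.07 and 7.47 log2 units on the KO ventral arrays, against 6.58, 6.94 and 6.31 on the WT ventral arrays, so the groups did not overlap, and it rose by 0.58 ± 0.16 (adjusted p = 0.0413). That call did not hold without WT ventral array 1 (0.56, adjusted p = 0.108), WT ventral array 3 (0.43, adjusted p = 0.165) or KO ventral array 3 (0.44, adjusted p = 0.161), nor without WT lateral array 1 or 2 or KO lateral array 3, which share the variance estimate (adjusted p up to 0.0564). It was also lost with the ventral arrays alone (adjusted p = 0.0983) and with the mean of the Hoxd8 probe sets (0.41, adjusted p = 0.0507). The second Hoxd8 probe set stood at 0.24 ± 0.12 in the ventral lobe and did not pass (adjusted p = 0.288 over all probe sets).

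The other members did not pass in the ventral lobe by their brightest probe sets. Hoxd11 had 6.47, 6.42 and 7.10 log2 units on the KO ventral arrays, against 6.25, 6.34 and 6.34 on the WT ventral arrays, where KO array 3 stood highest, and Hoxd10 had 6.46, 6.53 and 6.66 log2 units on the KO ventral arrays, against 5.98, 6.59 and 6.20 on the WT ventral arrays, which overlap. Neither passed, at 0.35 ± 0.16 and 0.29 ± 0.14 (adjusted p = 0.185 and 0.226). Hoxd13 stood at 0.24 ± 0.091 (adjusted p = 0.113). Its second probe set had 7.53, 7.47 and 7.65 log2 units on the KO ventral arrays, against 6.94, 7.16 and 6.90 on the WT ventral arrays, which do not overlap, and was higher by 0.55 ± 0.12 (adjusted p = 0.0197 over all probe sets). Hoxa7 and Hoxb6 had the lowest values, -0.34 ± 0.11 and -0.35 ± 0.13 (adjusted p = 0.0634 and 0.117). Hoxd9 stood at 0.044 ± 0.13, with 6.56, 6.28 and 6.30 log2 units on the KO ventral arrays, against 6.23, 6.61 and 6.17 on the WT ventral arrays. In the same comparison 6 of 9 smooth muscle markers and 5 of 9 fibroblast and matrix markers were higher, and the smooth muscle sums were 14.33 to 14.58 on KO ventral arrays, against 13.91 to 14.12 on WT ventral arrays. The part of these cells in the ventral Hox values was not tested.

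The change with genotype was compared between the lobes through the difference of the ventral and the lateral change. This difference passed in 9 of 33 members, in all of which the ventral change lay above the lateral change. Over all genes 9.31% passed, 6.51% higher and 2.80% lower. The 9 were 5 of the 8 Hoxd genes, 3 of the 9 Hoxb genes and 1 of the 9 Hoxa genes. After quantile normalization over the 12 arrays 9 members were higher and 1 was lower, while 8.58% of all genes passed, 5.42% higher and 3.15% lower. The lower one was Hoxa7, at -0.54 ± 0.14 (adjusted p = 0.0324), against -0.52 ± 0.15 on the deposited values, which did not pass (adjusted p = 0.0503). Hoxd8 changed by 0.58 in ventral and by -1.70 in lateral prostate, a difference of 2.28 ± 0.23 (adjusted p = 4.9e-05). For Hoxd9 the changes were 0.044 ventral and -1.99 lateral, a difference of 2.04 ± 0.19 (adjusted p = 2.55e-05). Those of Hoxd13 were 0.24 ventral and -0.43 lateral (0.67 ± 0.13, adjusted p = 0.00523).

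Hoxb4 differed by 0.99 ± 0.21, Hoxb2 by 0.82 ± 0.17 and Hoxb3 by 0.77 ± 0.14 between the lobes (adjusted p = 0.00846, 0.00664 and 0.00352). The second Hoxb4 probe set did not pass, at 0.0012 ± 0.19 (adjusted p = 0.998 over all probe sets), and the mean of the Hoxb4 probe sets did not pass (0.50, adjusted p = 0.0511). On ventral arrays the genotypes overlapped in all 3 of these genes. Hoxb3 had 6.05, 5.92 and 6.09 log2 units on the KO ventral arrays, against 6.09, 6.05 and 6.03 on the WT ventral arrays, and Hoxb4 had 6.37, 6.17 and 6.37 log2 units on the KO ventral arrays, against 5.94, 6.19 and 6.60 on the WT ventral arrays. Hoxb2 was low in the ventral lobe, with 3.24, 3.27 and 3.22 log2 units on the KO ventral arrays, against 3.17, 3.07 and 3.27 on the WT ventral arrays. Hoxd11, Hoxd10 and Hoxa11 passed less firmly, at 0.89 ± 0.22, 0.74 ± 0.20 and 0.54 ± 0.15 (adjusted p = 0.0249, 0.0355 and 0.0386). Without KO lateral array 3 these 3 did not pass, at 0.82, adjusted p = 0.0605 for Hoxd11, 0.62, adjusted p = 0.0804 for Hoxd10 and 0.51, adjusted p = 0.0808 for Hoxa11, and 6 members passed, as they did without both arrays that stood apart. Hoxd11 also did not pass without WT ventral array 1 or WT lateral array 2 (adjusted p up to 0.0625). Hoxd10 did not pass in 7 of the 12 fits that left out 1 array and Hoxa11 in 9 of 12, with adjusted p up to 0.083 and 0.0922. In this comparison 8 of 9 smooth muscle and 7 of 9 fibroblast and matrix markers passed with the ventral change above the lateral change. So did 4 of 6 seminal vesicle markers (median 2.94) and 3 of 5 basal epithelium markers. None of these lists had a marker passing the other way, while 2 of 6 urothelium markers did. The part of these tissues was not tested.

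More Hox genes were higher than lower in lateral against ventral prostate. After quantile normalization over the 12 arrays, 17 of 33 members were higher and 5 were lower in KO lateral than in KO ventral arrays, and 20 were higher and 4 were lower in WT lateral than in WT ventral arrays. Lobe differences were common in general, passing for 62.4% of all genes in KO (35.5% higher and 26.9% lower) and 57.4% in WT (31.7% higher and 25.7% lower), with a median over all genes of 0.078 in KO and 0.049 in WT. On the deposited values, whose median over all genes was -0.31 in KO and -0.34 in WT, 14 members were higher and 10 lower in KO (67.3% of all genes passed, 14.2% higher and 53.1% lower), and 15 were higher and 6 lower in WT (68.1% passed, 12.3% higher and 55.8% lower). In the deposited values, lobe and normalization run cannot be told apart. Tissue markers also differed between the lobes after quantile normalization. Smooth muscle markers had 7 of 9 higher in KO lateral and 9 of 9 higher in WT lateral arrays, with 0 lower. All 6 seminal vesicle markers were higher in both genotypes. Luminal epithelium markers, a list that holds Hoxb13, had 4 of 6 lower in KO and 3 in WT, with 1 higher in each. The part of these tissues in the lobe differences was not tested. In the lobe comparisons that follow, differences are after quantile normalization unless called deposited. Array signals there are after quantile normalization for Hoxb9, Hoxa5, Hoxb13, Hoxd9 and Hoxd8, and deposited for all other genes.

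Hoxb9, a gene of the rib cage and mammary gland, had 8.06, 8.33 and 8.24 log2 units on KO lateral arrays, against 6.09, 6.05 and 6.03 on KO ventral arrays. Its WT values were 8.50, 8.47 and 8.38 log2 units on WT lateral arrays, against 6.29, 6.08 and 6.12 on WT ventral arrays. Hoxb9 was higher in the lateral lobe by 2.15 ± 0.088 in KO (adjusted p = 4.66e-10) and 2.29 ± 0.088 in WT (adjusted p = 2.24e-10). Hoxa5 had 7.88, 7.88 and 7.83 log2 units on KO lateral arrays, against 6.18, 6.21 and 6.24 on KO ventral arrays. In WT it had 7.35, 7.42 and 7.34 log2 units on WT lateral arrays, against 5.93, 6.14 and 6.33 on WT ventral arrays, and the lobe differences were 1.66 ± 0.092 in KO and 1.24 ± 0.092 in WT (adjusted p = 8.58e-09 and 1.29e-07). Hoxd12, one of the limb genes of its cluster, was higher by 1.16 ± 0.091 in KO and 1.17 ± 0.091 in WT (adjusted p = 2.35e-07 and 2.07e-07). Its deposited values were 5.63, 5.64 and 5.92 log2 units on KO lateral and 5.79, 5.88 and 5.75 on WT lateral arrays, and 4.75, 4.81 and 4.91 on KO ventral and 4.90, 4.91 and 4.99 on WT ventral arrays. By the brightest probe sets, the lateral arrays lay above the ventral arrays of the same genotype in all 3 of these genes. The second Hoxa5 probe set was read on the deposited values only, where lobe and normalization run cannot be told apart. There its arrays overlapped between the lobes in both genotypes. Its deposited means were 6.57 log2 units on KO lateral and 6.26 on KO ventral arrays, and 6.35 on WT lateral and 6.31 on WT ventral arrays. On the deposited values the Hoxa5 lobe calls held with the mean of its probe sets.

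Hoxb13 went the other way. It had 11.29, 11.33 and 11.34 log2 units on KO lateral arrays, against 12.07, 12.07 and 12.14 on KO ventral arrays, and 11.25, 11.43 and 11.31 log2 units on WT lateral arrays, against 12.04, 12.05 and 11.95 on WT ventral arrays. It was lower in the lateral lobe, with a difference (lateral minus ventral) of -0.77 ± 0.074 in KO and -0.68 ± 0.074 in WT (adjusted p = 1.41e-06 and 4.35e-06), and of -1.26 in KO and -1.15 in WT on the deposited values. Hoxa13 stood at -0.52 ± 0.14 in KO (adjusted p = 0.00649) and did not pass in WT, at -0.21 ± 0.14 (adjusted p = 0.215). Its deposited signals were 6.64, 6.54 and 6.37 log2 units on KO lateral and 6.41, 7.01 and 6.51 on WT lateral arrays, and 7.61, 7.43 and 7.46 on KO ventral and 7.32, 7.41 and 7.10 on WT ventral arrays. By its brightest probe set, Hoxd13 was higher in the lateral lobe, by 0.70 ± 0.089 in KO and 1.29 ± 0.089 in WT (adjusted p = 1.92e-05 and 6.14e-08). On the deposited values it did not pass in KO, at 0.18 ± 0.091 (adjusted p = 0.101). Its second probe set had deposited means of 7.23 log2 units on KO lateral and 7.55 on KO ventral arrays, and 7.93 on WT lateral and 7.0 on WT ventral arrays. On the deposited values the probe sets of Hoxd13 thus differ in direction in KO. The second probe set was not read after quantile normalization, so the direction for Hoxd13 in KO is not settled here. Hoxc13, needed for hair in mice, was lower by both comparisons (-0.42 ± 0.086 in KO and -0.50 ± 0.086 in WT) but had low signal in all groups.

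The lobe differences of the genes that fell in KO lateral prostate share the lateral arrays with that comparison, and are given side by side. Hoxd9 was higher in the lateral lobe by 0.88 ± 0.14 in KO (adjusted p = 9.58e-05) and 2.92 ± 0.14 in WT (adjusted p = 1.29e-09). It had 7.22, 7.20 and 6.80 log2 units on KO lateral arrays, against 6.35, 6.12 and 6.12 on KO ventral arrays, and 9.07, 9.0 and 9.18 log2 units on WT lateral arrays, against 6.05, 6.44 and 6.0 on WT ventral arrays. Hoxd8 was at 0.34 ± 0.16 in KO, which did not pass (adjusted p = 0.0798), and at 2.59 ± 0.16 in WT (adjusted p = 2.14e-08). It had 7.43, 7.06 and 7.42 log2 units on KO lateral arrays, against 6.80, 6.86 and 7.23 on KO ventral arrays, which overlap, and 9.01, 8.88 and 9.13 log2 units on WT lateral arrays, against 6.39, 6.74 and 6.13 on WT ventral arrays, which do not. Deposited signals of the second Hoxd8 probe set did not overlap between the lobes in either genotype. They were 6.43, 6.34 and 6.15 log2 units on KO lateral arrays, against 5.51, 5.35 and 5.45 on KO ventral arrays. Hoxb4 was at 0.27 ± 0.14 in KO and 1.28 ± 0.14 in WT (adjusted p = 0.121 and 6.14e-06). Hoxb3 was at 0.63 ± 0.096 in KO and 1.41 ± 0.096 in WT (adjusted p = 8.95e-05 and 5.09e-08), and Hoxb6 at 1.28 ± 0.14 in KO and 1.76 ± 0.14 in WT (adjusted p = 4.64e-06 and 2.25e-07). The deposited ventral signals of Hoxb6 were 6.20, 6.24 and 6.38 log2 units on KO and 6.57, 6.50 and 6.80 on WT arrays, and those of Hoxd13 7.40, 7.33 and 7.19 log2 units on KO and 6.97, 7.20 and 7.02 on WT arrays. Hoxb2 was at 1.42 ± 0.12 in KO and 2.35 ± 0.12 in WT, against ventral signals below the low mark.

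**Figure D4:**
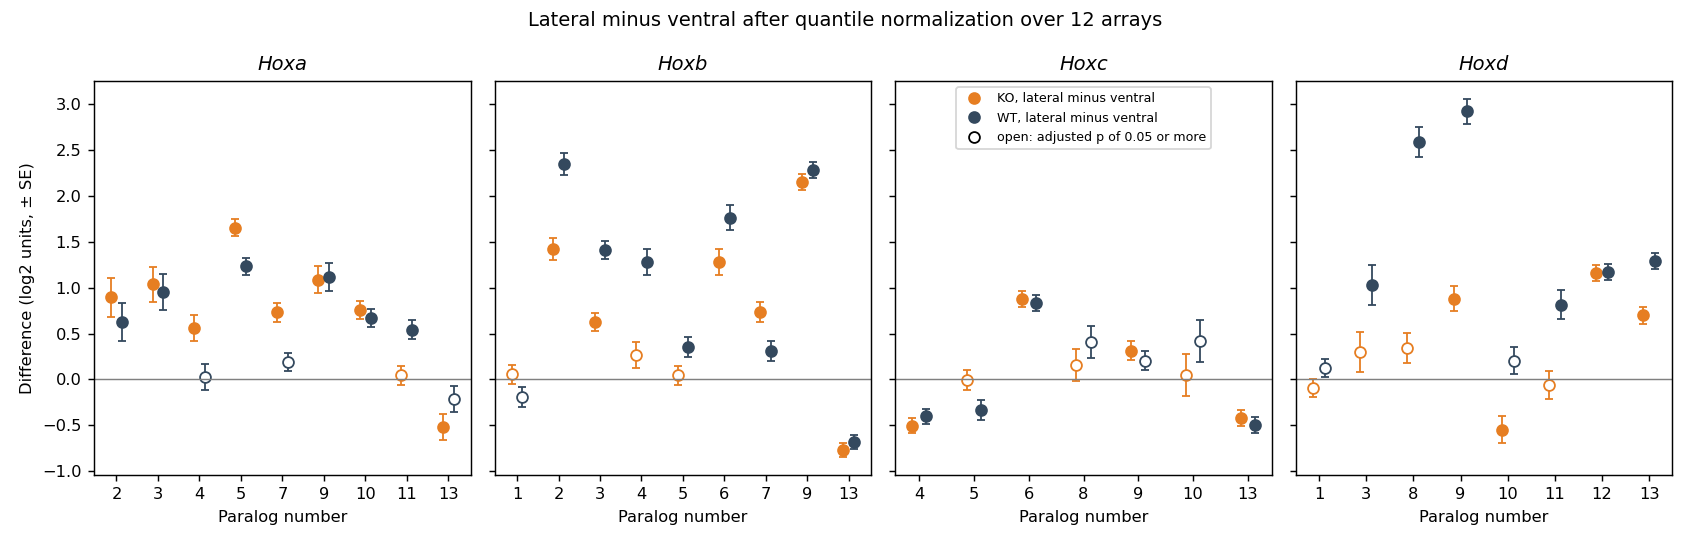
Difference between lateral and ventral prostate in log2 units (y axis, with moderated SE) after quantile normalization over 12 arrays, for each member by paralog number (x axis, evenly spaced), 1 panel per cluster, in KO and in WT. Filled points passed at an adjusted p under 0.05. Hoxd8 and Hoxd9 lie highest in WT, at 2.59 and 2.92, against 0.34 and 0.88 in KO, and Hoxb13 lies below 0 in both.

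The remaining lobe differences were smaller or changed with the processing. Among the higher-numbered Hoxa genes, Hoxa9 was at 1.09 ± 0.15 in KO and 1.12 ± 0.15 in WT, and Hoxa10 at 0.76 ± 0.094 and 0.67 ± 0.094, all passing (adjusted p = 3.39e-05, 2.9e-05, 1.48e-05 and 4.86e-05). Deposited Hoxa9 signals were 9.12, 9.05 and 9.11 log2 units on KO lateral and 8.93, 8.93 and 9.01 on WT lateral arrays, and 8.47, 8.47 and 8.88 on KO ventral and 8.31, 8.03 and 8.70 on WT ventral arrays. Hoxd10 was lower in KO lateral than in KO ventral arrays, at -0.55 ± 0.15 (adjusted p = 0.00564), and did not pass in WT, at 0.20 ± 0.15 (adjusted p = 0.261). Its deposited lateral signals were 5.77, 5.78 and 5.40 log2 units on KO and 6.01, 6.09 and 6.21 on WT arrays. Hoxa11 had 6.89, 6.62 and 6.69 log2 units on KO lateral and 7.15, 7.14 and 7.05 on WT lateral arrays, and 7.23, 7.18 and 7.05 on KO ventral and 6.81, 7.01 and 7.18 on WT ventral arrays. Its lobe difference in KO was -0.42 on the deposited values and 0.044 after quantile normalization, so that direction is not settled. Hoxa3, another hindbrain gene, was higher in the lateral lobe by 1.04 ± 0.19 in KO and 0.95 ± 0.19 in WT (adjusted p = 0.000431 and 0.000945). On the deposited values the mean of its 4 probe sets did not pass in WT (0.17, adjusted p = 0.206). Another Hoxa3 probe set had deposited means of 5.16 log2 units on WT lateral and 5.43 on WT ventral arrays. On the deposited values the direction of Hoxa3 in WT therefore depends on the probe set. The WT median over all genes was -0.34 on those values, and this probe set was not read after quantile normalization. Hoxa7, a gene of the trunk vertebrae, was at 0.73 ± 0.10 in KO and 0.19 ± 0.10 in WT, and Hoxd11 at -0.061 ± 0.16 in KO and 0.81 ± 0.16 in WT (adjusted p = 3.41e-05, 0.122, 0.75 and 0.000603).

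Hoxb7 was higher in the lateral lobe by 0.74 ± 0.11 in KO and 0.31 ± 0.11 in WT (adjusted p = 6.64e-05 and 0.0253), with deposited signals of 4.69, 4.44 and 4.82 log2 units on KO lateral and 4.23, 4.29 and 4.37 on WT lateral arrays, and 4.10, 4.18 and 3.93 on KO ventral and 4.27, 4.07 and 4.28 on WT ventral arrays. Only its KO lateral mean was above the low mark. Of the Hoxc genes above that mark, Hoxc6 had 6.05, 5.84 and 5.93 log2 units on KO lateral and 6.08, 5.91 and 5.88 on WT lateral arrays, and 5.39, 5.31 and 5.40 on KO ventral and 5.48, 5.36 and 5.50 on WT ventral arrays. Hoxc5 had 5.63, 5.94 and 5.99 log2 units on KO lateral and 5.71, 5.81 and 5.67 on WT lateral arrays, and 6.38, 6.16 and 6.03 on KO ventral and 6.42, 6.41 and 6.39 on WT ventral arrays. Both genes have several probe sets that disagree on the lobe difference in sign on the deposited values, so no direction is given. Hoxc9 was at 0.31 ± 0.10 in KO and 0.20 ± 0.10 in WT (adjusted p = 0.0187 and 0.11), and its KO arrays overlap between the lobes.

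Of the members with low signal in every group, some passed between the lobes. Hoxa2 had 4.0, 4.36 and 3.56 log2 units on KO lateral and 3.42, 3.49 and 3.44 on WT lateral arrays, and 3.13, 2.86 and 3.62 on KO ventral and 2.93, 2.83 and 3.30 on WT ventral arrays. Hoxa4 had 4.14, 3.85 and 4.15 log2 units on KO lateral and 3.35, 3.69 and 3.73 on WT lateral arrays, and 3.70, 3.67 and 3.44 on KO ventral and 3.54, 3.86 and 3.88 on WT ventral arrays. After quantile normalization Hoxa2 was higher in the lateral lobe in both genotypes, by 0.89 ± 0.21 in KO and 0.63 ± 0.21 in WT (adjusted p = 0.00225 and 0.0207). Hoxa4 passed in KO, at 0.56 ± 0.14 (adjusted p = 0.00362), and not in WT, at 0.023 ± 0.14 (adjusted p = 0.898). The lobe effects of Hoxa4 did not differ past the threshold (WT minus KO, -0.54 ± 0.20, adjusted p = 0.117). Hoxc4 had 3.11, 2.98 and 3.17 log2 units on KO lateral and 3.19, 3.24 and 3.16 on WT lateral arrays, and 3.79, 3.52 and 3.77 on KO ventral and 3.75, 3.82 and 3.81 on WT ventral arrays, and was lower in the lateral lobe, at -0.50 ± 0.085 in KO and -0.40 ± 0.085 in WT (adjusted p = 0.000189 and 0.00118). Hoxc13 had 4.01, 3.96 and 4.01 log2 units on KO lateral and 3.87, 3.74 and 3.79 on WT lateral arrays, and 4.74, 4.47 and 4.47 on KO ventral and 4.45, 4.57 and 4.53 on WT ventral arrays, so all its lateral arrays lay below all ventral arrays.

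Of the other members of low signal, only Hoxd3 in WT passed between the lobes after quantile normalization, at 1.03 ± 0.22 (adjusted p = 0.00125), and it did not pass in KO, at 0.30 ± 0.22 (adjusted p = 0.252). Hoxd3 had 2.84, 3.35 and 3.57 log2 units on KO ventral and 3.21, 3.56 and 3.49 on WT ventral arrays, which in WT lie below all lateral arrays and in KO overlap them. Hoxb1, known from hindbrain, had 2.83, 2.92 and 2.88 log2 units on KO lateral and 2.64, 2.79 and 2.58 on WT lateral arrays, and 2.93, 2.92 and 2.98 on KO ventral and 3.08, 2.84 and 3.33 on WT ventral arrays. Hoxd1, known from sensory neurons, had 2.01, 2.04 and 2.05 log2 units on KO lateral and 2.19, 2.09 and 2.0 on WT lateral arrays, and 2.53, 2.26 and 2.33 on KO ventral and 2.22, 2.18 and 2.45 on WT ventral arrays, with overlap of the lobes in WT. Without this normalization, Hoxb1 in WT (-0.42 ± 0.11, adjusted p = 0.004) and Hoxd1 in KO (-0.34 ± 0.097, adjusted p = 0.00669) were lower in the lateral lobe.

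Genes that work with or act on Hox clusters were examined as lists. Of 8 cofactor genes of the Pbx, Meis and Pknox families, 0 passed between KO and WT lateral prostate by limma (median 0.018, with 1 at an unadjusted p under 0.05), 1 was higher in KO ventral prostate (median 0.0082), and the same gene, Meis2, differed between the lobes. Meis2, which binds DNA beside Hox factors, stood at 0.53 ± 0.14 in the ventral lobe (adjusted p = 0.0264) and -0.38 ± 0.14 in the lateral lobe (adjusted p = 0.135), a difference of 0.91 ± 0.19 (adjusted p = 0.0088). Of 16 Polycomb genes, which keep Hox clusters silent, 0 passed by limma in the lateral lobe (2 at an unadjusted p under 0.05) and 1 in the ventral lobe, Phc3 at 0.28 ± 0.083 (adjusted p = 0.0468). The change of 2 Polycomb genes differed between the lobes, Bmi1 at 0.55 ± 0.15 and Cbx2 at -0.56 ± 0.16 (ventral minus lateral; adjusted p = 0.0385 and 0.0409). Of 10 activators of the MLL type, which keep Hox clusters active, 0 passed by limma in these 3 comparisons, with 2 at an unadjusted p under 0.05 in the ventral lobe, 0 in the lateral lobe and 1 for the difference between them.

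Inputs to Hox clusters and genes of prostate budding gave at most 3 calls per list in each of the same 3 comparisons. Of 12 genes of retinoic acid and Cdx signalling, 1 was higher in KO lateral prostate. It was Aldh1a1, an enzyme that makes retinoic acid, at 0.056 ± 0.074 in ventral and 0.80 ± 0.074 in lateral prostate (adjusted p = 0.691 and 1.92e-05), a difference of -0.75 ± 0.11 (adjusted p = 0.000604). In the ventral lobe 1 was lower, Cyp26b1, an enzyme that degrades retinoic acid, at -0.57 ± 0.14 (adjusted p = 0.0192). Of 12 genes of prostate bud patterning, 2 were lower in KO lateral and 2 were higher in KO ventral prostate. Ptch1, the Hedgehog receptor and target, stood at 0.41 ± 0.091 in ventral and -0.39 ± 0.091 in lateral prostate (adjusted p = 0.0124 and 0.0244). Fgf7, a growth factor made by stroma, stood at 0.48 ± 0.16 in ventral and -0.66 ± 0.16 in lateral prostate (adjusted p = 0.0776 and 0.0267). Bmp4, a stromal signal that limits budding, stood at 0.49 ± 0.11 in ventral and -0.17 ± 0.11 in lateral prostate (adjusted p = 0.0109 and 0.401). All 3 differed between the lobes, by 0.80 ± 0.13, 1.14 ± 0.22 and 0.67 ± 0.15 (adjusted p = 0.00159, 0.00603 and 0.0134). Of 11 other genes in or beside the clusters, 0 passed in the lateral lobe by limma, also at an unadjusted p under 0.05, and 3 were higher in KO ventral prostate: Evx1, a homeobox gene at the end of Hoxa, at 0.57 ± 0.12, Smug1, beside Hoxc, at 0.33 ± 0.083, and Mtx2, beside Hoxd, at 0.35 ± 0.096 (adjusted p = 0.00997, 0.026 and 0.0362).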

How the data were processed

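Total RNA of 12 mouse prostate samples (3 in each of 4 groups of genotype and lobe) was read on Affymetrix whole-genome expression arrays. The authors deposited RMA values on the log2 scale, for which the submitters' processing notes name Affymetrix Expression Console, without a version. At a given rank, the sorted values spread over a median of 0.0493 among ventral arrays and 0.0786 among lateral arrays, but over 0.388 among all 12. The arrays hold 45101 probe sets, of which 34958 have 1 symbol, 932 several and 9211 none; symbols were updated by Entrez identifier in a RefSeq table (GRCm38.p6; 34754 matched), and the brightest probe set per gene was kept.

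Groups followed the labels. The tests used limma 3.58.1 and R 4.3.3 (4 group means, 12 arrays, 8 residual and 5.68 prior degrees of freedom), adjusted over 18194 genes by Benjamini and Hochberg, for 5 comparisons; a gene passed at an adjusted p under 0.05. Low signal means a group mean under the lower quartile of probe sets (4.73 in the ventral lobe, 4.52 in the lateral lobe), a mark chosen after the values were seen. The steps were checked on simulated data. Members, gene lists and the rule for naming genes (every member, in full up to 25 that pass, and list members that pass) were chosen with earlier results of these data known. Alternatives were the arrays of a comparison alone, a replicate block, other normalization, a filter on dim genes, other probe sets, another variance model, a stricter threshold and each array left out; they are given at the end. Within a group arrays correlated at 0.992 to 0.996. Arrays carry no read depth.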

Additional observations from a re-analysis of the deposited data

Results flagged for a closer look

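Each of these 9 genes had a genotype change that differed between the lobes, by a limma test of the difference itself over 12 arrays (KO minus WT in the ventral lobe, less KO minus WT in the lateral lobe, in log2 units with SE, adjusted over all genes). In the Hoxd cluster the difference was 2.28 ± 0.23 for Hoxd8, 2.04 ± 0.19 for Hoxd9, 0.89 ± 0.22 for Hoxd11, 0.74 ± 0.20 for Hoxd10 and 0.67 ± 0.13 for Hoxd13. In the Hoxb cluster it was 0.99 ± 0.21 for Hoxb4, 0.82 ± 0.17 for Hoxb2 and 0.77 ± 0.14 for Hoxb3. The second Hoxb4 probe set gave 0.0012 ± 0.19 (adjusted p = 0.998), and the mean of the Hoxb4 probe sets did not pass (adjusted p = 0.0511). In the Hoxa cluster it was 0.54 ± 0.15 for Hoxa11. The test found the largest adjusted p of the 9 for Hoxa11, 0.0386. In 8 of the 9 the fitted change was above 0 in the ventral and below 0 in the lateral lobe, and Hoxb3, at -0.039 in ventral and -0.80 in lateral prostate, was below 0 in both. Of these ventral changes, Hoxd8 alone passed by itself. The genotype change of smooth muscle, fibroblast, seminal vesicle and basal epithelium markers differed between the lobes in the same direction. Seminal vesicle markers had 4 of 6 passing, with a median of 2.94, while 2 of 6 urothelium markers passed the other way. The part of these tissues was not tested.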

How the results depend on the processing

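Lateral calls of Hoxb2, Hoxb3, Hoxb4, Hoxb6, Hoxd8 and Hoxd9 held in all settings in which each was tested. Of 1400 single-gene values under other settings, 1275 stayed on the same side of the threshold, 115 fell short of it and 10 changed sign. The lateral count of 10 was 6 at an adjusted p under 0.01, and 6 to 12 with each array left out. The ventral count of 1 was 0 with the ventral arrays alone, with the replicate number as a block, after quantile normalization, at an adjusted p under 0.01 and without WT ventral array 3 and KO lateral array 3 together (chosen after seeing the data); it was 2, 1 higher and 1 lower, among the 19 members left when the dimmest genes were dropped, and 0 to 1 with each array left out. The same filter gave 13 in place of 21 for the lobes in WT and 14 in place of 24 in KO, since it tested fewer members; leaving out arrays gave 20 to 22 in WT and 20 to 24 in KO, and 6 to 11 in place of 9 for the difference between lobes. Deviations from group means were correlated between arrays of the same replicate number. Between genotypes the correlations were 0.0374, 0.116 and 0.0286 in the ventral and -0.00713, 0.0385 and -0.00375 in the lateral lobe. Between lobes they were 0.0723, 0.0193 and -0.0334 in WT and -0.0459, -0.0608 and -0.00881 in KO. With 3 arrays a group such values cannot settle whether the numbers pair samples, and the main tests treated arrays as unpaired. Under the replicate block the lateral count stayed 10 and the ventral count was 0.

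Lobe directions reversed for some genes, and the cause was not tested beyond the setting itself. In KO the lateral minus ventral difference became 0.0435 for Hoxa11 and 0.0466 for Hoxb5 after quantile normalization, and 0.0317 for Hoxb5, 0.0258 for Hoxc5 and 0.0237 for Hoxd1 with arrays centred on their medians. With the most variable probe set it was 0.743 for Hoxc5 and -0.486 for Hoxc6 in KO, and 0.514 for Hoxc5 and -0.553 for Hoxc6 in WT, where the mean of the probe sets gave -0.0405 for Hoxc6. With 3 arrays a group, the number of arrays limits the precision, and RMA gives no detection calls, so members of low signal carry little information.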

Other observations

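A probe set that the annotation gives to both Hoxb8 and Hoxb7, and which therefore names neither, had 3.53, 4.09 and 3.82 log2 units on KO lateral arrays, against 6.18, 5.89 and 5.72 on WT lateral arrays. It fell by 2.12 ± 0.18 (SE; limma adjusted p = 1.31e-05 over all probe sets), and its KO arrays lay below all WT arrays. In the ventral lobe it stood at -0.17 ± 0.18 (adjusted p = 0.638). The probe set of Hoxb7 alone did not pass in the lateral lobe. Of the 2 probe sets given to both Hoxd4 and Hoxd3, 1 fell in KO lateral prostate, at -0.81 ± 0.17 (adjusted p = 0.0229), and the other stood at -0.33 ± 0.14 (adjusted p = 0.239).

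The antisense gene Hoxd3os1, named here after its values were seen, had 4.58, 4.69 and 4.86 log2 units on KO lateral arrays, against 5.97, 5.53 and 6.40 on WT lateral arrays. The groups did not overlap, and the difference was -1.26 ± 0.21 (limma adjusted p = 0.00242). In the ventral lobe it was 0.40 ± 0.21 (adjusted p = 0.256). Hoxb5os and Hoxa11os did not pass in the lateral lobe, at -0.15 ± 0.20 and 0.33 ± 0.16 (adjusted p = 0.717 and 0.266). Another probe set of Hoxa3 had 6.38, 6.10 and 6.11 log2 units on KO lateral arrays, against 5.42, 5.42 and 5.81 on WT lateral arrays, higher by 0.65 ± 0.15 (adjusted p = 0.0283), while the brightest Hoxa3 probe set stood at 0.20 ± 0.19 (adjusted p = 0.607 over all genes).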
